A study of Mus musculus with 12 samples.

Results

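The STAT factors and JAK kinases of mouse naïve CD8+ T cells were followed at the RNA level as 9 genes: the kinases Jak1, Jak2, Jak3 and Tyk2 and the transcription factors Stat3, Stat4, Stat5a, Stat5b and Stat6. These genes were chosen by symbol, and no measured value entered the rule, though earlier results of these data were known when the set was proposed. All 9 were among the 14323 symbols of the count table, and all 9 passed the filter on low counts in every comparison. Cells positive for TCRβ and CD8 and negative for CD44, in a gate on naïve cells, from 3 wild type mice (adults on a C57BL/6N background, as for the study's mice in general, with the sex of these 3 not given in the sources used here), were sorted from spleen and cultured for 6 h at 100000 cells per well on plates coated with antibody. Cells of each mouse went into 4 conditions, which gave 4 groups of 3 libraries: no anti-CD3 with isotype control, no anti-CD3 with anti-LAIR-1 (clone 2C7), anti-CD3ε (clone 145-2C11) with isotype control, and anti-CD3ε with anti-LAIR-1, each antibody at 2.5 µg/ml. By the treatment labels (isotype + isotype, isotype + anti-LAIR-1), the wells without anti-CD3 held an isotype control in its place. Anti-CD3 crosslinks the T cell receptor complex and stands in for antigen, with no costimulatory antibody added, and the anti-LAIR-1 antibody engages LAIR-1, an inhibitory collagen receptor of leukocytes. The comparisons ask which transcripts LAIR-1 engagement changes in CD3-stimulated cells, set against the response to anti-CD3 itself.

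Cytokine receptors without a kinase domain of their own carry JAK kinases on their cytoplasmic tails. When a cytokine brings the receptor chains together, the kinases phosphorylate each other and the receptor, and STAT proteins dock, are phosphorylated, pair up and enter the nucleus. In CD8+ T cells the IL-2, IL-7 and IL-15 receptors act through JAK1 and JAK3 and mainly STAT5a and STAT5b, the IL-12 receptor through TYK2 and JAK2 and STAT4, the IL-4 receptor through STAT6, and the IL-6, IL-10 and IL-21 receptors largely through STAT3. JAK and STAT proteins are switched by phosphorylation, so RNA levels do not report their activity.

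The libraries held 1781218 to 7725545 counts and 10816 to 11838 genes each, and 3 counts corresponded to 0.388 to 1.68 CPM (the counts of a gene scaled to a common library total). Levels are CPM after TMM scaling, so each is relative to the other RNA of its library, and fewer cells of a type and less RNA per cell cannot be told apart. The 4 markers of CD8 T cells found in the table summed to 1838 to 2071 CPM without anti-CD3 and 994 to 1362 CPM with it. The naïve markers Ccr7, Lef1 and Tcf7 summed to 1619 to 1768 CPM without anti-CD3 and 267 to 395 CPM with it, and the activation markers Cd69, Il2ra, Nr4a1 and Egr1 to 140 to 170 and 1219 to 1484 CPM. Summed markers of other cells reached at most 4.85 CPM for CD4 T cells, 9.71 for B cells, 5.93 for myeloid cells and 0.662 for NK cells. These sums cover 3 of 3, 4 of 5, 5 of 6 and 2 of 4 markers. Ighm, Lyz2, Ncr1 and Gzma had no row in the count table, which limits the last 3 sums. Mitochondrial transcripts took 17.7 to 20.9% of counts without anti-CD3 and 11.5 to 13.2% with it; their part in the differences below was not tested.

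Stat5b, Stat5a and Stat3 lie side by side on mouse chromosome 11 (mm10, GENCODE M21). Stat5b occupies 100780731 to 100850724 on the minus strand, Stat5a 100859351 to 100885169 on the plus strand, and Stat3 100885098 to 100939540 on the minus strand. Stat5b and Stat5a thus start back to back, 8626 bases apart, while the 3′ ends of Stat5a and Stat3 overlap by 72 exonic bases on opposite strands. The other genes are spread over the genome, with Stat4 on chromosome 1, Stat6 on 10, Jak1 on 4, Jak2 on 19, Jak3 on 8 and Tyk2 on 9.

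Stat5a and Stat5b, and likewise Jak1 and Jak2, moved in opposite directions with anti-CD3 (below), and so the bases just upstream of their starts are shown for comparison. They are the parts, outside exons annotated in GENCODE M21, of the 250 bases before each RefSeq start site (GRCm38.p6), read 5′ to 3′ on the gene's strand, with GC boxes (GGGCGG on either strand) in capitals.

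Stat5a, first start, chr11:100859581-100859655, plus strand: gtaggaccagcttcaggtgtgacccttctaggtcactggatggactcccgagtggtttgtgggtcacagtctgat
Stat5a, second start, chr11:100860234-100860344, plus strand: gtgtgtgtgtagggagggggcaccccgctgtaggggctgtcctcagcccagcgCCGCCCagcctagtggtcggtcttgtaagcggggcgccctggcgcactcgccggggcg
Stat5b, first start, chr11:100850725-100850831, minus strand: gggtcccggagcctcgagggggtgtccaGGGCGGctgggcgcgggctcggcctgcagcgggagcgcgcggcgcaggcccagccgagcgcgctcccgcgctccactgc
Jak1, chr4:101265283-101265473, minus strand: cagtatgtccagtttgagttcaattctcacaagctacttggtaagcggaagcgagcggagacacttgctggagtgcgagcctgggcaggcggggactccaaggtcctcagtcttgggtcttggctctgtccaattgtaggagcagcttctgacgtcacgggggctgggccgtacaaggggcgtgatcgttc
Jak2, chr19:29251553-29251802, plus strand: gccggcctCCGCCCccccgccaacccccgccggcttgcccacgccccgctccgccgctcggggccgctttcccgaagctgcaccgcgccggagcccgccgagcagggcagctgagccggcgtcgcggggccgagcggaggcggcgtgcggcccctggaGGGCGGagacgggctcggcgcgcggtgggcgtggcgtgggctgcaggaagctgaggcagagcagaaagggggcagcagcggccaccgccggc

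Over the whole 250-base windows, GC content was 82% before the first Stat5b start and 80.8% before Jak2, against 57.6% before the first Stat5a start, 68% before the second and 61.2% before Jak1. It was 46.4% before a second Stat5b start, which lies inside the gene, has no GC box and is not shown. Both Stat5a windows also lie inside their gene as annotated in GENCODE M21 (from 100859351), and the first has no GC box. They are thus not flanks of the whole gene, as that of the first Stat5b start is in part. The median of 32851 RefSeq promoters was 52.4%, and 1 in 10 exceeded 69.2%. The first Stat5b start and Jak2 had the most GC-rich windows of the 12. Whether GC content bears on the changes with anti-CD3 was not tested. A GC box stood in 7 of the 12 windows of the 9 genes and in 32.7% of all promoters, and CCAAT (either strand) in 4 of the 12 and in 33.8%. Of motifs bound by STAT dimers and by factors downstream of the T cell receptor, TTCNNNGAA (the STAT element GAS, in 7.02% of all promoters), TGANTCA (AP-1, 6.75%), the NF-κB motif (1.21%) and CACGTG (E-box, 6.02%) were in 0 of the 12 windows. All were searched on both strands, with overlapping matches allowed. These are letter matches in short windows and say nothing about binding elsewhere.

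Anti-CD3 turned the JAK kinase transcripts in opposite directions. Jak1 and Tyk2 fell, Jak2 rose, and Jak3 did not pass the test, whether isotype or anti-LAIR-1 was on the plate. With isotype, 6 of the 9 genes passed the edgeR test (2 higher, 4 lower), against a background of 71.3% of 8690 genes tested (35.3% higher, 36.1% lower). With anti-LAIR-1, 7 of 9 did (3 higher, 4 lower), against 72.7% of 9000 genes (36.4% higher, 36.3% lower), so a change as such does not set these genes apart.

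Jak1 encodes the kinase shared by the receptors for γ-chain, interferon and gp130 cytokines. Its level in mice 1, 2 and 3 was 877, 871 and 899 CPM without anti-CD3 and 215, 208 and 205 CPM with it, both with isotype. With anti-LAIR-1 the levels were 907, 905 and 870 CPM and then 243, 271 and 262 CPM. Every stimulated library lay below every unstimulated one. The log2 fold change was -2.11 ± 0.09 (SE, n = 3 mice per group, adjusted p = 4.7e-16) with isotype and -1.80 ± 0.07 (adjusted p = 5.1e-14) with anti-LAIR-1, or 0.231 and 0.288 times the unstimulated level.

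Jak2, the kinase of the IL-12 receptor β2 chain and of the interferon-γ receptor, went the other way. Its levels were 50.3, 40.0 and 44.2 CPM without and 110, 114 and 97.3 CPM with anti-CD3 under isotype, a log2 fold change of 1.21 ± 0.13 (adjusted p = 1.4e-08). Under anti-LAIR-1 they were 38.0, 43.0 and 45.0 CPM against 107, 98.5 and 82.6 CPM, a log2 fold change of 1.19 ± 0.12 (adjusted p = 3.4e-08). The stimulated and unstimulated libraries did not overlap.

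Tyk2, which pairs with JAK1 or JAK2 on the interferon-α and IL-12 receptors, was covered by only 28 to 77 counts per library. With isotype it stood at 11.6, 18 and 21.6 CPM without and 8.47, 11.0 and 6.43 CPM with anti-CD3, lower in 3 of 3 mice (log2 fold change -0.99 ± 0.28, adjusted p = 0.00296). With anti-LAIR-1 it went from 21.3, 17.8 and 18.5 to 6.34, 10.1 and 6.14 CPM (-1.35 ± 0.22, adjusted p = 2.2e-05). The closest pair, 11.6 CPM in the unstimulated and 11.0 CPM in the stimulated isotype libraries, nearly met. A gene annotated antisense to Tyk2, 1700084C06Rik, shares 554 exonic bases with it and has no row of its own.

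Jak3, the partner of the common γ chain, was the least covered gene, with 13 to 67 counts. It ranged from 7.01 to 15.1 CPM without and 7.20 to 10.8 CPM with anti-CD3, with overlapping groups. The log2 fold change was -0.38 (95% interval -0.95 to 0.20, adjusted p = 0.231) with isotype and -0.26 (-0.76 to 0.23, adjusted p = 0.326) with anti-LAIR-1. Jak3 shares 404 exonic bases with Insl3, and 345 of the 846 stretches of 60 bases in the last 500 bases of its transcripts also occur in Insl3. A read that mapped equally well to both genes was discarded by the counting, which kept 1 read for Insl3 in all libraries. The stretches come from GENCODE M21, and the transcripts of the counting reference were not compared with them.

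**Figure D1:**
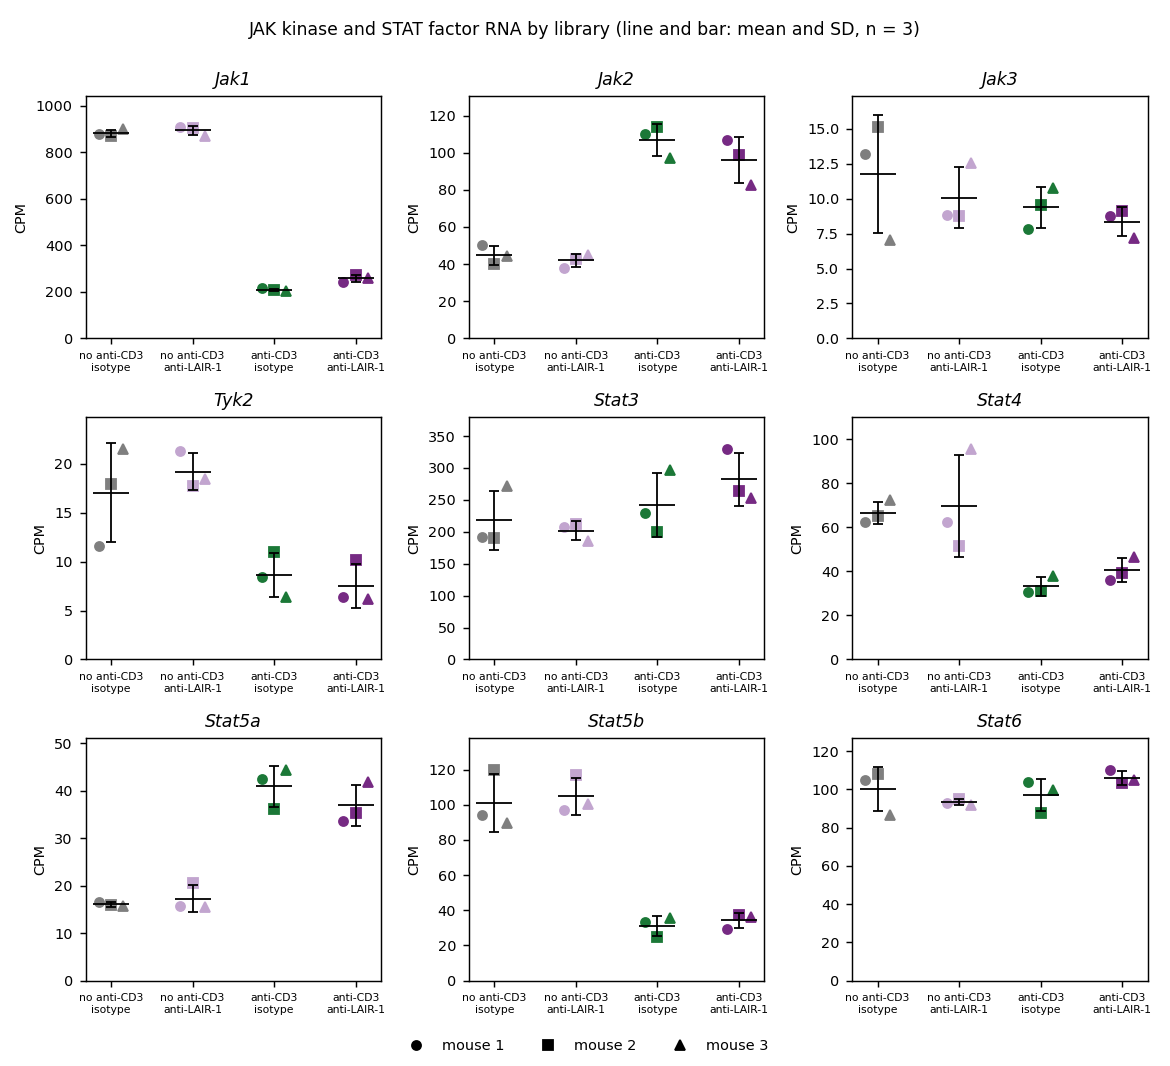
TMM-scaled CPM (vertical axes, each from 0) of the 4 JAK kinase and 5 STAT factor transcripts in the 12 libraries; points are libraries with a shape per mouse, and lines and bars are the mean and SD of 3 mice in each of the 4 groups. Jak1, Tyk2, Stat4 and Stat5b sit lower, and Jak2 and Stat5a higher, in all 6 libraries with anti-CD3, Tyk2 by a narrow margin (11.0 against 11.6 CPM).

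The paralogues Stat5a and Stat5b, which encode near-identical factors that carry the IL-2, IL-7 and IL-15 signal, diverged. Stat5a rose with anti-CD3 from 16.5, 15.9 and 15.6 to 42.3, 36.0 and 44.4 CPM with isotype (log2 fold change 1.31 ± 0.18, adjusted p = 6.7e-07). With anti-LAIR-1 it rose from 15.8, 20.4 and 15.5 to 33.6, 35.3 and 41.7 CPM (1.08 ± 0.16, adjusted p = 5.2e-06). Every stimulated library exceeded every unstimulated one, at 29 to 276 counts per library. The 3′ end of Stat5a overlaps that of Stat3 by 72 exonic bases on the opposite strand. Stat3 had 12551 reads over all libraries and Stat5a 1551. Whether strand was used in counting is not given in the sources used here, which limits the Stat5a levels and the shares below.

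Stat5b fell over the same 6 h. Its levels were 94.0, 120 and 89.5 CPM without and 33.3, 24.8 and 35.5 CPM with anti-CD3 under isotype (log2 fold change -1.73 ± 0.15, adjusted p = 3.9e-10). Under anti-LAIR-1 they were 97.3, 117 and 101 CPM against 29.5, 37.5 and 36.0 CPM (-1.63 ± 0.12, adjusted p = 2.9e-10). Again the stimulated and unstimulated libraries did not overlap. Both together summed to 117 ± 16.4 (SD, n = 3) and 122 ± 13.3 CPM in the unstimulated isotype and anti-LAIR-1 groups, and to 72.1 ± 10.0 and 71.2 ± 7.45 CPM in the stimulated ones.

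Within a library, the share of Stat5a among Stat5a and Stat5b reads needs no scaling between libraries. It was 14.97, 11.7 and 14.9% in the unstimulated isotype libraries (mean 13.9 ± 1.85%, SD, n = 3) and 56.0, 59.2 and 55.5% in the stimulated ones (56.9 ± 2.02%). With anti-LAIR-1 the mean was 14.1 ± 0.755% without and 51.8 ± 2.87% with anti-CD3, where the libraries read 53.2, 48.5 and 53.7%. The reads behind each share numbered 195 to 518, and their 95% exact (Clopper-Pearson) binomial intervals, which cover counting error only, ran from 8.46% to 20.7% over the unstimulated and from 43.7% to 65.0% over the stimulated libraries. In 50 of 1052 stretches of 60 bases at the 3′ ends of annotated Stat5a transcripts the sequence also occurs in Stat5b, against 0 of 441 for Stat5b, and a read that maps equally well to both was discarded. As 3′ counts, the shares compare libraries and not the absolute amounts of both transcripts.

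The same was done for the kinases. Jak1 took 92.3 ± 0.202% (SD, n = 3) of the reads of the 4 JAK genes in the unstimulated isotype libraries and 62.6 ± 1.66% in the stimulated ones. Jak2 took 4.69 ± 0.536% and then 32.0 ± 1.36%. With anti-LAIR-1 the Jak1 share went from 92.6 ± 0.563% to 69.8 ± 3.30%, and the Jak2 share from 4.35 ± 0.432% to 25.9 ± 3.14%. Jak3 and Tyk2 together never made up more than a small remainder, with group means of 1.05 to 2.82% and 1.78 to 2.57%. The 4 genes summed to 956 ± 14.4 and 965 ± 16.4 CPM without anti-CD3 and to 334 ± 13.1 (isotype) and 371 ± 16.2 CPM (anti-LAIR-1) with it.

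**Figure D2:**
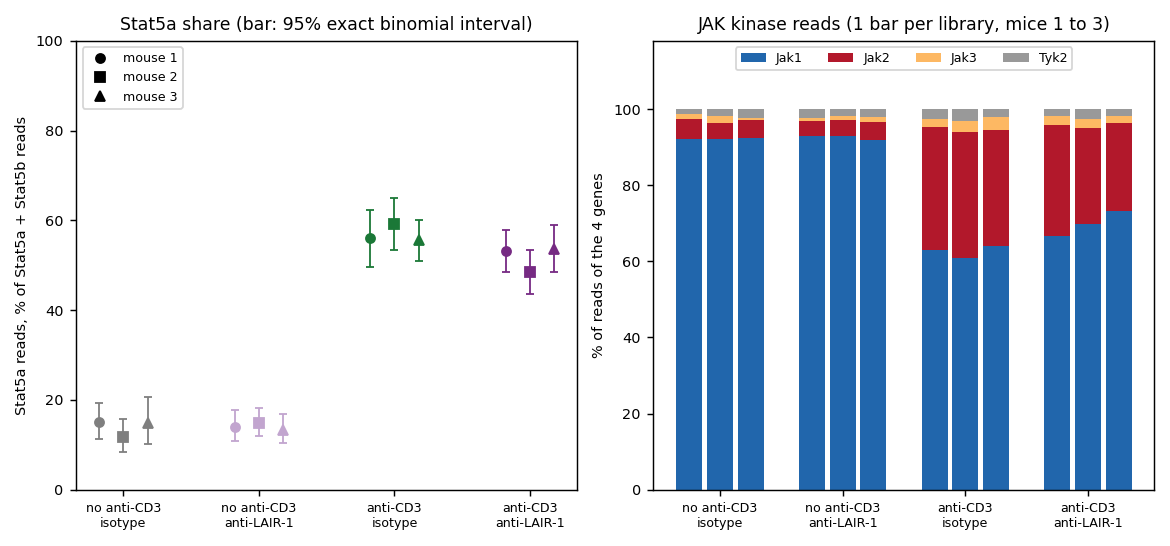
Left, Stat5a reads as a percentage of Stat5a and Stat5b reads in each of the 12 libraries, with 95% exact binomial intervals and a shape per mouse; right, the reads of the 4 JAK genes split by gene, 1 bar per library and 3 mice per group. The Stat5a share lies between 11.7 and 14.97% without anti-CD3 and between 48.5 and 59.2% with it, and group means of the Jak2 share are 4.35 and 4.69% without and 25.9 and 32.0% with anti-CD3.

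Stat4, the factor of IL-12 signalling, fell. With isotype it went from 62.6, 65.3 and 72.3 CPM to 30.5, 30.9 and 38.1 CPM (log2 fold change -1.02 ± 0.14, adjusted p = 8.4e-07). With anti-LAIR-1 it went from 62.4, 51.5 and 95.8 CPM to 36.0, 39.4 and 46.4 CPM (-0.80 ± 0.17, adjusted p = 3.5e-04). The unstimulated anti-LAIR-1 library of mouse 3, at 95.8 CPM, was the highest, and without it the latter change was -0.50, still past the threshold. The groups did not overlap in either case.

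Stat3, the factor of the gp130 and IL-21 receptors, gave a less settled picture. With isotype it stood at 192, 191 and 272 CPM without and 229, 200 and 297 CPM with anti-CD3, which overlapped (log2 fold change 0.13 ± 0.14, adjusted p = 0.398). With anti-LAIR-1 it stood at 208, 213 and 185 CPM without and 330, 263 and 253 CPM with anti-CD3, with no overlap (0.48 ± 0.10, adjusted p = 2.5e-04). The change with isotype turned on mouse 3, whose 2 isotype libraries were both the highest of their group. It was 0.30 (adjusted p = 0.0412) without the unstimulated one and -0.02 (adjusted p = 0.883) without the stimulated one. Upper-quartile scaling, which moved the median of all genes from -0.03 to -0.20 with isotype and from -0.04 to -0.24 with anti-LAIR-1, put Stat3 at -0.05 and 0.27 (adjusted p = 0.0186). That Stat3 passed with anti-LAIR-1 and not with isotype does not show that the responses differ, since the difference itself was 0.32 ± 0.19 (adjusted p = 0.541).

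Stat6, the factor of IL-4 signalling, stayed within 86.8 to 110 CPM in all 12 libraries. Its log2 fold change with anti-CD3 was -0.09 (95% interval -0.33 to 0.16, adjusted p = 0.516) with isotype and 0.18 (-0.01 to 0.37, adjusted p = 0.0763) with anti-LAIR-1, and upper-quartile scaling turned the latter to -0.03. Without a filter on low counts the latter was 0.27 and passed (adjusted p = 0.0171). Stat6 overlaps Nab2 by 40 exonic bases at the 3′ ends, on opposite strands, and whether strand was used in counting is not given in the sources used here.

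The median log2 fold change of the 4 kinases was -0.68 under isotype and -0.81 under anti-LAIR-1, and that of the 5 STAT factors -0.09 and 0.18. The median of all genes tested was -0.03 and -0.04. Besides the 9, Stat2, a factor of interferon signalling, fell (log2 fold change -1.89 ± 0.32 with isotype, -1.42 ± 0.22 with anti-LAIR-1, adjusted p = 1.24e-05 and 1.07e-05 by edgeR).

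**Figure D3:**
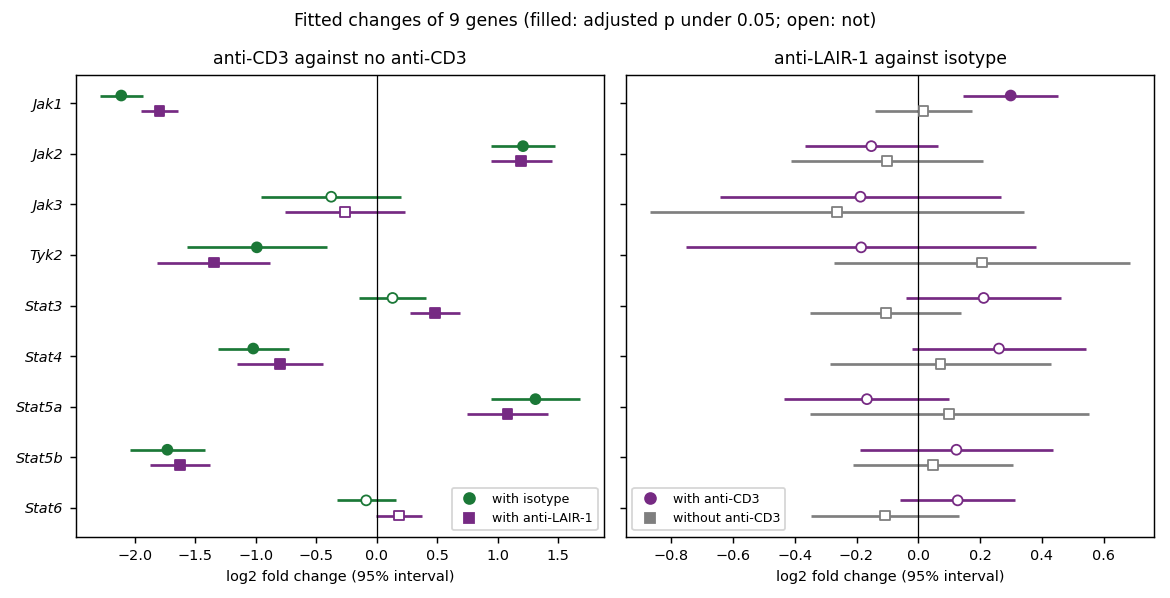
Log2 fold changes with 95% intervals (horizontal axes, scaled separately) of the 9 genes for anti-CD3 against no anti-CD3 (left, with isotype or anti-LAIR-1) and anti-LAIR-1 against isotype (right, with or without anti-CD3); filled symbols have an adjusted p under 0.05. On the left Jak1 and Stat5b lie at -1.63 or below and Jak2 and Stat5a at 1.08 or above, while on the right Jak1 with anti-CD3, at 0.30, is the single filled symbol.

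Anti-LAIR-1 gave few calls among the JAK and STAT transcripts. In anti-CD3 cells 1 of the 9 genes, Jak1, passed the test, against a background of 5.76% of 8800 genes tested (507, of which 343 or 3.9% were higher and 164 or 1.86% lower). Jak1 was higher with anti-LAIR-1, at 243, 271 and 262 CPM, than with isotype, at 215, 208 and 205 CPM. It was higher in 3 of 3 mice and the groups did not overlap. The log2 fold change was 0.30 ± 0.07 (95% interval 0.14 to 0.45, adjusted p = 0.0215), which is 1.23 times the isotype level.

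This call rested on most of the libraries. Leaving out the isotype library of mouse 2 or mouse 3 gave 0.29 (adjusted p = 0.0668) and 0.27 (adjusted p = 0.0856), and leaving out the anti-LAIR-1 library of mouse 2 or mouse 3 gave 0.26 (adjusted p = 0.121) and 0.29 (adjusted p = 0.0578). Under the other scalings, filters and models the log2 fold change was 0.29 to 0.37 and stayed past the threshold, DESeq2 included (adjusted p = 0.0176).

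The other members did not pass, and their levels overlapped between antibodies. Stat4 (log2 fold change 0.26, 95% interval -0.02 to 0.54, adjusted p = 0.302) was higher in 3 of 3 mice and Stat3 (0.21, -0.04 to 0.46, adjusted p = 0.352) in 2 of 3. Stat5a (-0.17, -0.43 to 0.10, adjusted p = 0.535) and Jak2 (-0.15, -0.37 to 0.06, adjusted p = 0.462) were lower in 3 of 3 mice, while Stat5b (0.12, -0.19 to 0.44) and Stat6 (0.13, -0.06 to 0.31) leaned the other way. The intervals of Jak3 (-0.64 to 0.27) and Tyk2 (-0.75 to 0.38) were the widest. None of these intervals, nor that of Jak1, reached 1.08 in size. That was the smallest change that Stat5a, Stat5b, Jak1 and Jak2 showed with anti-CD3. Stat3, Stat4, Stat6 and Jak3, and Tyk2 with isotype, changed by less than that with anti-CD3.

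Without anti-CD3 none of the 9 genes passed by edgeR or DESeq2, in a comparison where edgeR called 0% of 8770 genes (384 had an unadjusted p under 0.05). The adjusted p was 0.997 for each of the 9, and their unadjusted p-values were 0.358 or more. Jak1 was the most narrowly bounded, at 877, 871 and 899 CPM with isotype and 907, 905 and 870 CPM with anti-LAIR-1 (log2 fold change 0.02, 95% interval -0.14 to 0.17). Jak3 was the most widely bounded (-0.26, -0.87 to 0.34).

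Whether the anti-LAIR-1 effect depended on anti-CD3 was tested as an interaction over all 12 libraries. None of the 9 genes passed by edgeR or DESeq2, where 2.07% of 9223 genes did. Jak1 alone had an unadjusted p under 0.05 (difference of the effects 0.29 ± 0.10 on the log2 scale, edgeR adjusted p = 0.191). Its higher level under anti-LAIR-1 was therefore not shown to be particular to anti-CD3 cells. The comparisons share libraries, and so their values are not independent of each other.

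Around the 9 genes, the receptor chains that carry JAK kinases responded to anti-CD3 in both directions. Of 18 chains tested, 6 rose and 9 fell with isotype (median log2 fold change -0.71), and 5 rose and 9 fell with anti-LAIR-1 (-0.60), in comparisons where 71.3% and 72.7% of all genes passed. The IL-2 receptor α chain Il2ra rose by 5.00 ± 0.15 and 4.56 ± 0.12 and the IL-21 receptor Il21r by 1.60 ± 0.14 and 1.58 ± 0.11 on the log2 scale. Il15ra encodes the α chain of the IL-15 receptor and Il12rb1 the β1 chain of the IL-12 receptor. With anti-CD3 and isotype they stood at 12.6 ± 2.19 and 7.94 ± 2.20 CPM, against at most 1.39 and 0.539 CPM in any unstimulated library. In the unstimulated isotype group they had 0 and 1 reads. Il12rb2, for the β2 chain of the IL-12 receptor, had at most 3 reads summed over any group. Il7r, the IL-7 receptor α chain, fell by 5.95 ± 0.16 and 4.75 ± 0.14. Ifngr1 (-3.78 and -3.11), Il6ra (-3.34 and -2.88) and Ifngr2 (-3.31 and -2.98), chains of the interferon-γ and IL-6 receptors, fell too. Il10ra, of the IL-10 receptor, went from 8.06 ± 0.912 CPM to 1 read in 3 libraries with isotype.

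Of 17 inhibitors of the pathway 8 rose and 5 fell with either antibody (medians 0.21 and 0.25), near the 71.3% and 72.7% of all genes that passed. Cish, a STAT5-induced feedback inhibitor, rose by 3.88 ± 0.22 and 1.99 ± 0.20. Socs4 (1.63 and 1.44), Sh2b3 (1.05 and 1.53) and Socs6 (0.96 and 0.72) rose less, and Pias3 (-2.47 and -2.87), Socs3 (-2.40 and -2.50) and Pias1 (-0.84 and -0.73) fell. Socs6 missed the threshold when all libraries were thinned to the smallest total (0.70 with isotype, adjusted p = 0.110, and 0.34 with anti-LAIR-1, adjusted p = 0.361), without the unstimulated isotype library of mouse 1 (0.62) and, with anti-LAIR-1, under upper-quartile scaling (0.51). Socs4 with anti-LAIR-1 missed it under DESeq2 (adjusted p = 0.0865) and stood at 2.37 without the unstimulated anti-LAIR-1 library of mouse 1. Of 16 genes known as STAT5 targets, 9 rose and 2 fell with isotype and 10 rose and 4 fell with anti-LAIR-1 (medians 0.63 and 1.02), again against 71.3% and 72.7% of all genes that passed, among them Myc (3.94 and 3.68), Bcl2l1, which encodes the survival protein Bcl-xL (3.53 and 2.35), and Ccnd2, which encodes cyclin D2 (2.91 and 2.37), while Ccnd3 fell (-2.15 and -1.58). Gzmb (granzyme B) went from at most 1.11 CPM in any unstimulated library to 41.5 ± 11.1 CPM with anti-CD3 and isotype. Of 9 genes known as targets of STAT3, STAT4 or STAT6, 3 rose and 5 fell with either antibody (medians -1.61 and -0.78), with Junb up (0.71 and 0.91) and Il18r1 (-3.93 and -3.10), Socs3, Gata3 (-1.74 and -2.07) and Bcl3 (-2.04 and -0.97) down. Il18r1 had 9 reads in the stimulated isotype group, 8 of them in the library of mouse 3, and its change with isotype was -5.89 without that library.

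Among the ligands, Il2, Ifng and Lif had no read in the unstimulated isotype libraries. Against a floor of 3 counts over that group, anti-CD3 with isotype raised Il2 at least 41.3-fold, Ifng at least 93.8-fold and Lif at least 17.0-fold, and by the same bound Tbx21, a target of STAT4 that encodes T-bet, at least 15.9-fold. Mean levels with anti-CD3 and isotype were 16.7 ± 1.41 CPM for Il2, 38.4 ± 0.275 for Ifng and 6.53 ± 2.97 for Lif. With anti-CD3 and anti-LAIR-1 Il2 stood at 6.42 to 9.31 CPM, Ifng at 13.9 ± 3.72 and Lif at 1.04 ± 0.679 CPM.

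In anti-CD3 cells, these ligands and part of the STAT5 targets were lower with anti-LAIR-1 than with isotype. The 9 JAK and STAT transcripts had log2 fold changes of -0.19 to 0.30. How the changes of ligands, targets and members relate to each other was not tested. Il2 (log2 fold change -1.07 ± 0.20), Ifng (-1.44 ± 0.17) and Lif (-2.72 ± 0.46) fell, 3 of the 4 ligands tested. Of the 19 ligands listed, 8 were in the count table, and only these 4 passed the filter on low counts. Lif had 2 to 8 counts per library with anti-LAIR-1 and 19 to 61 with isotype. Of 17 STAT5 targets 6 fell and 1 rose, where 1.86% of all genes were lower and 3.9% higher, and their median was -0.29 against 0.00 for all genes. The 4 that fell most were Gzmb (-2.65 ± 0.22), Cish (-1.77 ± 0.13), Pim1, a survival kinase (-0.87 ± 0.16), and Bcl2l1 (-0.87 ± 0.10), and Ccnd2 (-0.71 ± 0.10) and Il2ra (-0.49 ± 0.08) followed. Bcl6, a repressor that STAT5 is known to lower, rose (1.07 ± 0.22). Pim1 missed the threshold under DESeq2 (adjusted p = 0.0725). Il2 (adjusted p = 0.0686) and Bcl6 (adjusted p = 0.0796) did so when all libraries were thinned to the smallest total. Only 1 ligand was called after that thinning.

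Cish was the single inhibitor of 17 to pass in that comparison, and Ifng the single one of 8 targets of STAT3, STAT4 or STAT6, where 5.76% of all genes passed. Of 17 receptor chains 3 were higher with anti-LAIR-1, Il7r (1.33 ± 0.22), Ifngr1 (0.67 ± 0.17) and Ifnar1 (0.63 ± 0.17), and Il2ra was lower. Ifnar1 missed the threshold in 5 of the 6 fits that left out 1 library (0.48 to 0.67, all but that without the anti-LAIR-1 library of mouse 1) and Ifngr1 in 2 of them (0.48 without the isotype library of mouse 2, 0.50 without the anti-LAIR-1 library of mouse 3). After thinning, Il7r (adjusted p = 0.0719), Ifngr1 (adjusted p = 0.0848) and Ifnar1 (adjusted p = 0.203) all missed it. In these cells the naïve markers Ccr7, Lef1 and Tcf7 summed to 341 to 395 CPM with anti-LAIR-1 and 267 to 350.5 CPM with isotype. Lef1 (163 to 178 against 94.5 to 112 CPM) and Tcf7 (35.1 to 41.5 against 22.7 to 25.2 CPM) were higher with anti-LAIR-1 without overlap, as Il7r and Jak1 were, while Ccr7 overlapped (143 to 176 against 147 to 215 CPM). The CD8 T cell markers summed to 1225 to 1362 CPM with anti-LAIR-1 and 994 to 1057 CPM with isotype, and the part of either marker list in these differences was not tested. Without anti-CD3 none of the 51 genes of these lists tested passed by edgeR (3 had an unadjusted p under 0.05) or by DESeq2.

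**Figure D4:**
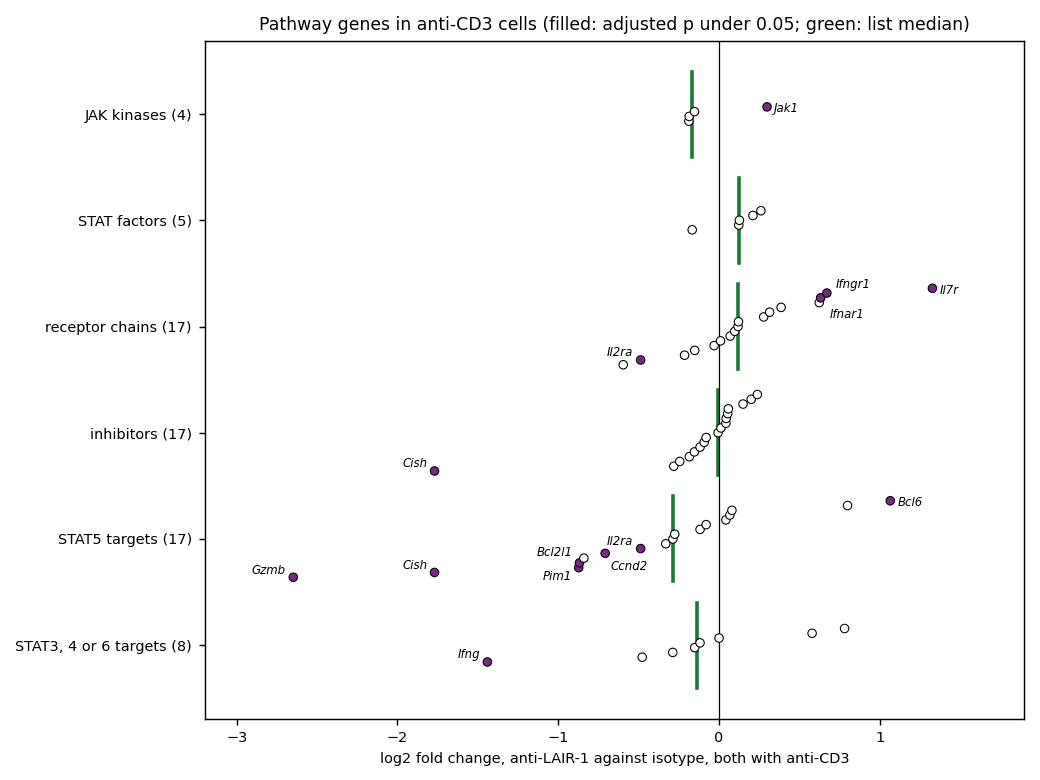
Log2 fold changes (horizontal axis) for anti-LAIR-1 against isotype in anti-CD3 cells of the 4 JAK kinases, the 5 STAT factors and 4 lists of pathway genes, with the number tested in brackets; filled points have an adjusted p under 0.05 and are named, and green lines mark list medians. The 9 kinases and STAT factors lie between -0.19 and 0.30, while STAT5 targets reach -2.65 and 1.07; Cish and Il2ra stand in more than 1 list, and vertical offsets within a list only separate points.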

How the data were processed

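RNA of naïve CD8+ T cells from 3 mice in 4 conditions was measured in 12 libraries. The authors used an adapted CEL-seq protocol, which reads transcript 3′ ends, aligned the 60-base read to mm10 transcripts with BWA MEM and deposited raw counts per gene, without reads whose best match was shared by several places. Whether molecular identifiers or strand were used is not given in the sources used here. Binomial intervals of read shares cover counting error only, and intervals of fold changes cover the spread between mice as edgeR estimates it.

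Groups came from the treatment labels. Each comparison used edgeR 4.0.16 in R 4.3.3 (TMM, filterByExpr, quasi-likelihood F-test, two-sided, Benjamini-Hochberg over all genes tested, threshold 0.05) on the 6 libraries of its groups, and the interaction all 12. With 3 against 3 an exact permutation test cannot go below p = 0.1 and was not used. The script was tested on simulated data with 200 genes changed 2-fold. Alternatives were DESeq2 1.42.0, its size factors or upper-quartile factors in edgeR, no filter, a mouse block, all 12 libraries in 1 fit, thinning to the smallest total and leaving out each library.

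Cells were sorted per mouse and split over conditions, so mouse numbers pair the libraries. Deviations from group means correlated at 0.0271 to 0.0746 (mean over mice) within mice and -0.0373 to -0.0136 between mice. Deviations within a group cancel out, so the values between mice largely follow from those within mice. Libraries of 1 group differed by 3.82 to 5.62 chi-square units per gene, so none was a copy. Within a group, replicates are separate mice. Positions came from GENCODE M21 and promoters from RefSeq (GRCm38.p6). All members are named, and of each pathway list the genes past the threshold with the largest change, up to 4 in each direction; any more are named because a count of them is given. Members and lists were chosen with earlier results of these data known, so no list was tested. No protein sequences were used, and the results of some list genes are not reported here.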

Additional observations from a re-analysis of the deposited data

Results flagged for a closer look

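None of the 9 JAK and STAT genes passed the edgeR interaction test over 12 libraries, where 2.07% of 9223 genes did. Of the 58 other genes of the pathway lists tested, 3 passed it. The effect in anti-CD3 cells minus that in unstimulated cells was 1.17 for Il7r (adjusted p = 0.0100), -1.92 for Cish (adjusted p = 0.00173) and -1.21 for Bcl2l1 (adjusted p = 0.0430). Leaving out 1 library at a time, Bcl2l1 missed the threshold in 10 of 12 fits and Il7r in 1, without the stimulated isotype library of mouse 3. When all libraries were thinned to the smallest total, Il7r (0.83, adjusted p = 0.310) and Bcl2l1 (-1.32, adjusted p = 0.0927) both missed it.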

How the results depend on the processing

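The number of the 9 genes past the threshold was 6 or 7 for anti-CD3 with isotype, 7 or 8 for anti-CD3 with anti-LAIR-1, and 0 for anti-LAIR-1 without anti-CD3 and for the interaction, under all alternatives. For anti-LAIR-1 in anti-CD3 cells it was 0 to 1 when 1 library was left out, and 1 otherwise. The mouse as replicate block changed no member's call (Jak1 adjusted p = 0.0243). Among the pathway genes, it ended the call of Ptpn1 with anti-CD3 and anti-LAIR-1 (adjusted p = 0.0553) and brought that of Ccnd2 in the interaction (adjusted p = 0.0213), and it changed no other call named in the text.

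Some members that missed the threshold changed sign (log2 values). Thinning put Stat5b at -0.084 for anti-LAIR-1 with anti-CD3, and Stat5b and Jak3 at -0.10 each in the interaction. Upper-quartile scaling put Stat3 at -0.045 with isotype and Stat6 at -0.026 with anti-LAIR-1 for anti-CD3, and no filter put Stat6 at 0.0046 with isotype. Leaving out 1 library gave, for anti-LAIR-1 with anti-CD3, -0.024 to 0.24 for Stat5b and -0.46 to 0.046 for Tyk2. Without anti-CD3 it gave -0.19 to 0.074 for Stat3, -0.23 to 0.25 for Stat4, -0.039 to 0.17 for Stat5a, -0.036 to 0.19 for Stat5b, -0.18 to 0.0012 for Jak2 and -0.032 to 0.39 for Tyk2. For anti-CD3 with isotype it gave -0.025 to 0.30 for Stat3 and -0.18 to 0.0077 for Stat6, and in the interaction -0.073 to 0.20 for Stat5b, -0.15 to 0.046 for Jak2 and -0.11 to 0.30 for Jak3. The cause was not tested.

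Over all genes, the 343 higher and 164 lower calls for anti-LAIR-1 with anti-CD3 became 471 and 261 without a filter, 391 and 99 with all 12 libraries in 1 fit, 206 and 84 after thinning to fewer reads, and 211 to 299 and 82 to 142 without 1 library. The 168 and 23 of the interaction became 221 and 54 without a filter, 98 and 12 after thinning, and 94 to 161 and 9 to 25 without 1 library. Without a filter 5 genes were called without anti-CD3, in place of 0. These counts, and those of the pathway genes, were added as results after the data were seen. Jak3 and Tyk2, at 13 to 77 counts, limit the precision most.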

Other observations

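The genes whose levels over the 12 libraries were most like those of each member were looked up among 9223 genes as a description. The libraries split into those with and without anti-CD3, and this split and the shared scaling enter every coefficient. For Jak1 they were Klf3, a factor of quiescent T cells, and Scml4 (r = 0.999 for both). For Stat5b they were Dock8, a regulator of the T cell cytoskeleton, and Macf1 (0.992 for both), for Stat4 Adk (0.970) and Usf2 (0.966), and for Tyk2 Trim56 (0.979) and Hist2h3c1 (0.969). Of the members that rose with anti-CD3, Jak2 was most like Stoml2 (0.995), a mitochondrial membrane protein gene, and Desi1 (0.993), and Stat5a most like Pfdn4 (0.989), a prefoldin subunit gene, and Grpel1 (0.986), a co-chaperone of mitochondrial import. Stat3 (Fntb 0.878, Mien1 0.855), Stat6 (Il20rb 0.864, Ccdc97 0.840) and Jak3 (A330050B17Rik 0.862, Tgfbr1 0.861) had no gene as close.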
